A study of Mus musculus with 14 samples.

Results

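The genes described here are 9 enzymes that make, split or transfer nitrogen on asparagine, aspartate and glutamine: Asns, Asrgl1, Asnsd1, Aspg, Ass1, Gls2, Glul, Got1 and Got2. They are 9 of 46959 gene entries and were taken by symbol. That rule uses no measured value, but the members were chosen with earlier results of these data known. RNA sequencing covered 14 libraries of Eµ-Myc malignant B cells, which arise in E-mu-MycTg/+ mice from a Myc transgene driven by the immunoglobulin heavy chain enhancer; the labels give the genotype of every library as WT. One lymph node B-cell lymphoma came from a wild-type C57BL/6 host of line 506 cells given L-asparaginase (ASNase), a drug that breaks down asparagine in the blood, and 1 lymphoma came from a host of the same cells given vehicle (0.9% NaCl). Treatment ran from day 7 after injection to disease endpoint. The remaining 12 libraries were untreated lines (115, 136, 309, 504, 505, 506, 517, 524, 549, 649, 688 and 801), each derived from its own transgenic mouse and kept for 24 h in culture. The culture medium held GlutaMAX, a glutamine dipeptide, and added L-asparagine. Each lymphoma and each line had 1 library, so p-values measure the spread between lines, both lymphomas share 1 line of origin, and the host cells in a lymphoma were sequenced with it.

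Asparagine is made in the cytosol by asparagine synthetase, which moves the amide nitrogen of glutamine onto aspartate, and it is broken down to aspartate by asparaginases. Aspartate comes from the aminotransferases of the mitochondrion and the cytosol, which also carry electrons across the mitochondrial membrane in the malate-aspartate shuttle, and it is used to make arginine, nucleotides and protein. Lymphoid leukaemias are treated with asparaginase because many of them make little asparagine, and transcription of asparagine synthetase is known to rise through the factor ATF4 when amino acids run short.

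Promoters of 7 members were in the RefSeq set for GRCm38.p6, which holds 250 bases before and 50 after each start. They were searched on both strands for TGATGNAA, the amino acid response element read by ATF4 with its partners, and for CACGTG, the E-box read by MYC with MAX. The first occurred in 3.97% and the second in 7.15% of 32851 windows of that length. Among the members, TGATGNAA was found in Asns and Got1 and CACGTG in Ass1. The windows of those 3 genes are shown with the matched letters in capitals, together with that of Asrgl1, which held neither but was nearly silent in the same line as Asns.
Asns, chr6:7693160-7693459, minus strand: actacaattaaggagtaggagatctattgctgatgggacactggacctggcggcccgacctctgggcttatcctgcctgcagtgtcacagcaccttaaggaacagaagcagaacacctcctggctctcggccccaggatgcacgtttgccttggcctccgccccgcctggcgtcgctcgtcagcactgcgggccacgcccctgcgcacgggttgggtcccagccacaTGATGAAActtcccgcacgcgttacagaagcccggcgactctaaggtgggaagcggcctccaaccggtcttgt
Got1, chr19:43524556-43524855, minus strand: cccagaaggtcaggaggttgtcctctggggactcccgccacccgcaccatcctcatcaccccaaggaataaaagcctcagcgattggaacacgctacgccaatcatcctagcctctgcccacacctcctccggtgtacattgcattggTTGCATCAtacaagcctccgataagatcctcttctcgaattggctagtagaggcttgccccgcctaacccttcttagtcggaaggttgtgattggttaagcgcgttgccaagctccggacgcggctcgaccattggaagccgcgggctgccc
Ass1, chr2:31470020-31470319, plus strand: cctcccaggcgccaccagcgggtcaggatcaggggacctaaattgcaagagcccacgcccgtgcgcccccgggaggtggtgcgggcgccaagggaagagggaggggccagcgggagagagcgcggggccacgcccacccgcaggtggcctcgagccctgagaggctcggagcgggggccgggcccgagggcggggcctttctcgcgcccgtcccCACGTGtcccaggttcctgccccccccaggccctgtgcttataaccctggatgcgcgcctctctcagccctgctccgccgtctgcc
Asrgl1, chr19:9135517-9135816, minus strand: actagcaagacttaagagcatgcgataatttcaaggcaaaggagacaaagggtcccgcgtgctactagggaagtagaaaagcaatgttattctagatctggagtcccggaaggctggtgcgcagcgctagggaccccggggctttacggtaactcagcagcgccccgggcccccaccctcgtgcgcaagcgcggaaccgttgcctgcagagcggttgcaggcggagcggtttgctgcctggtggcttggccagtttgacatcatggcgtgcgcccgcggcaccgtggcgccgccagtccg
The Asns match began 23 bases before the RefSeq start and read TGATGAAA on the gene's strand. In Got1 the match lay on the opposite strand, so that TTGCATCA is printed, and began 102 bases before the start. The E-box of Ass1 began 36 bases before its start. The Asns window held 20 CpG dinucleotides and the Asrgl1 window 26, against a median of 7 over all windows. Ass1 had 27, Got2 24, Got1 18, Glul 17 and Aspg 3, so such counts were not particular to Asns and Asrgl1. The window of Trim32, a gene described below, held 18. At least 20 were present in 26.5% of windows.

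Counts assigned to genes came to 25690935 in the ASNase lymphoma, 27715832 in the vehicle lymphoma and 24597230 to 32614751 in the lines. Levels are in CPM, counts per 1000000 of the library total scaled by the TMM method. A count of 0 allows up to 3 counts, or 0.0896 to 0.124 CPM in the lines, and floors and intervals cover counting error only. All 10 B cell markers were detected in both lymphomas, and all but Ms4a1, which was at 0 in at least 1 line, were detected in every line. Their summed level was 3398 CPM in the ASNase lymphoma, 4393 CPM in the vehicle lymphoma and 2366 to 4325 CPM (median 2931) in the lines. In both lymphomas, summed fibroblast and macrophage markers were above every line. Summed endothelial and T cell markers lay within the range of the lines. Singly, 4 of 8 endothelial and 6 of 8 T cell markers were called higher in the lymphomas by the edgeR test used below. So were 10 of 10 fibroblast markers, 10 of 11 macrophage markers and 13.4% of all genes tested. Genes at or near 0 in every line entered the test only through the lymphomas, and the lines gave them almost no spread. Calls of such markers were therefore set by their presence in the lymphomas and add nothing to the levels. Tie1, Cd3e and Cd4 were at 0 in every line and had counts in both lymphomas. The 10 fibroblast markers summed to 2436 CPM in the ASNase lymphoma, 1003 CPM in the vehicle lymphoma and at most 2.04 CPM in any line, with Pdgfra, Dcn, Postn and Col6a1 at 0 in every line. The 11 macrophage markers summed to 763 CPM in the ASNase lymphoma, 364 CPM in the vehicle lymphoma and 2.84 to 64.6 CPM in the lines, where C1qa, C1qb and Cd163 were at 0. Endothelial markers summed to 217 CPM in the ASNase lymphoma, 330 CPM in the vehicle lymphoma and 31.8 to 545 CPM in the lines, and T cell markers to 8.42, 41.9 and 0 to 125 CPM. Neutrophil markers (13.2, 23.0 and at most 0.167 CPM) and hepatocyte markers (0.134, 0.515 and at most 0.0679 CPM) were also low in the lines. Adipocyte markers summed to 62.8, 61.9 and at most 32.5 CPM, the last in line 506, from which both lymphomas grew. In that line Fabp4 had 31.4 CPM, against 32.4 CPM in the ASNase lymphoma and 37.6 CPM in the vehicle lymphoma. In such bulk libraries fewer cells of a type and less RNA per cell cannot be told apart.

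The 9 genes sat far apart in level, and the aminotransferases led. Per kilobase of exon, the median over the lines was 139 CPM for Got2, the mitochondrial aspartate aminotransferase, and 81.4 CPM for Got1, its cytosolic counterpart, with Got2 above Got1 in 12 of 12 lines. Ass1, argininosuccinate synthase, which joins aspartate to citrulline on the way to arginine, followed with 64.2 CPM per kilobase. Got1 exceeded Ass1 in only 7 of 12 lines, so this pair had no fixed order. Glul, glutamine synthetase, and Asns had medians of 30.0 and 29.7 CPM per kilobase and were likewise not ordered, with Glul higher in 6 of 12 lines. Asrgl1, which splits asparagine and isoaspartyl peptides, came next with 16.3 CPM per kilobase and lay below Asns in 11 of 12 lines. Asnsd1, a protein with an asparagine synthetase domain whose function is little known, had 3.20 CPM per kilobase, and Gls2, the liver-type glutaminase, had 0.739 CPM per kilobase. Aspg, another asparaginase, was close to absent. It had 1 count in the ASNase lymphoma, 0 in the vehicle lymphoma, and 1 count in line 115 as its only count among the lines, and it was not tested.

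**Figure D1:**
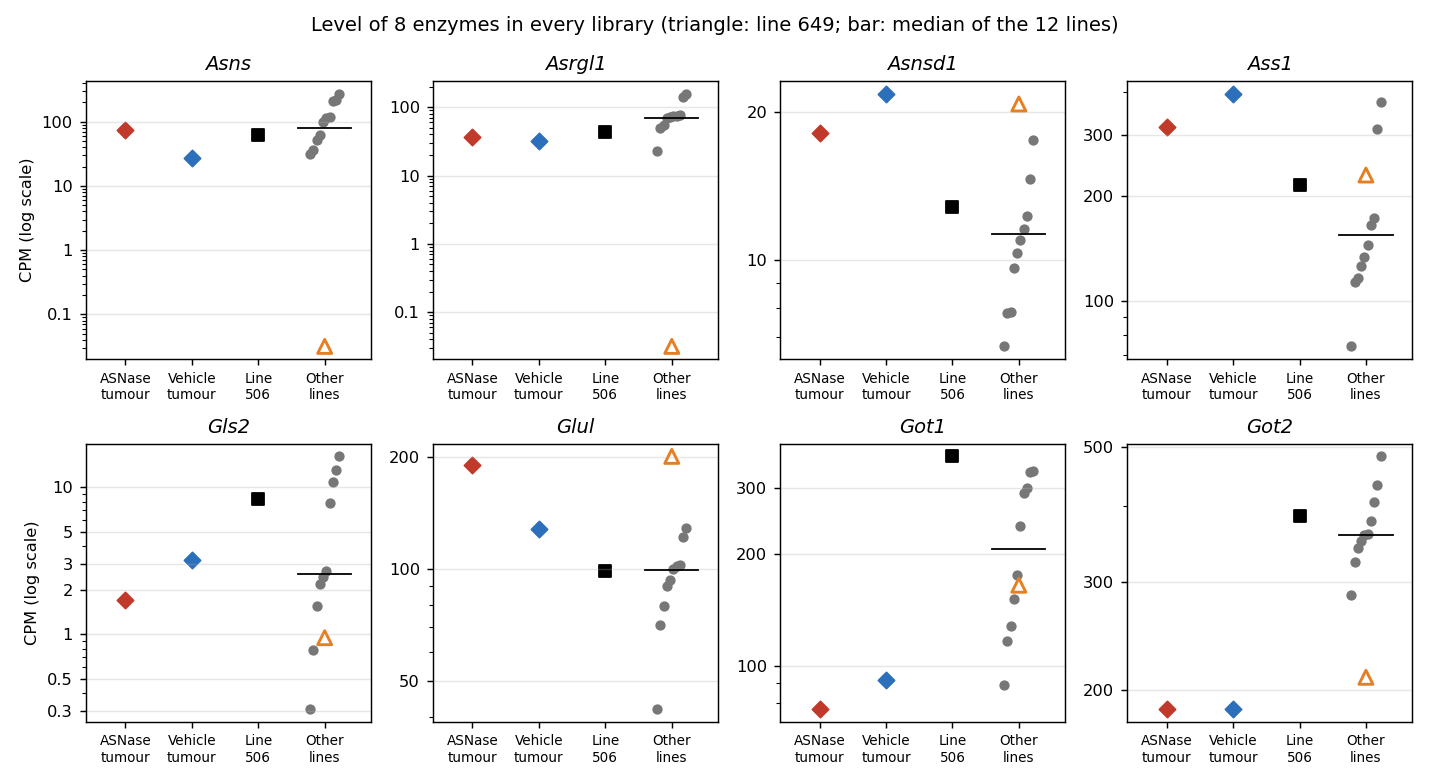
Level in CPM (log axis, a separate scale for each gene) of the 8 members that were tested, in the ASNase lymphoma, the vehicle lymphoma, line 506 and the other lines, 1 point per library; the bar is the median of the 12 lines and the open triangle is line 649. Line 649 stands at 0.0317 CPM for Asns and Asrgl1, and both lymphomas lie below every line for Got2.

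The lines differed most in Asns, Asrgl1 and Gls2. Their standard deviations (SD) of log2 CPM over the 12 lines were 3.02, 2.81 and 1.75, against a median of 0.34 over 9765 genes with at least 5 mean CPM. These 3 of 8 members had an SD of at least 1, as did 12.6% of those genes. Got1 (0.69), Ass1 (0.66), Glul (0.54) and Asnsd1 (0.48) were also above the median gene, whereas Got2 (0.31) was below it. Without line 649 the SD was 1.06 for Asns, 0.76 for Asrgl1 and 1.75 for Gls2.

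Asns was nearly silent in 1 line. Line 649 had 1 count, or 0.0317 CPM, whereas the other 11 lines ran from 31.1 CPM in line 524 through a median of 99.6 CPM to 274 CPM in line 309. Against line 524, the lowest of the others, the ratio was 0.00102 (95% binomial interval 2.57e-05 to 0.00568). The remaining lines still spanned 8.79-fold, with lines 115 and 136 at 216 and 214 CPM beside line 309, and lines 801, 688, 504 and 506 between 36.2 and 62.7 CPM. The gene lies at chr6:7675169-7693254 (mm10, minus strand, protein-coding, 2735 exon bases), shares no exon base with another entry, and none of its 75-base stretches recurred in another gene's transcripts.

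Asrgl1 was nearly silent in the same line. It also had 1 count, or 0.0317 CPM, in line 649, whereas the other 11 lines ran from 23.0 CPM in line 801 through a median of 71.4 CPM to 157 CPM in line 115. Its ratio to line 801 was 0.00138 (95% interval 3.48e-05 to 0.0077). Asrgl1 lies on another chromosome, at chr19:9109868-9135636 (minus strand, protein-coding). Line 649 thus had 1 count each for the enzyme that makes asparagine and for one that splits it.

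Silence in a single line was rare. Of 8479 genes with at least 5 CPM in 11 or more lines, 0.425% had at most 3 counts in just 1 line, and line 649 held 3 of these genes. They were Asns, Asrgl1 and Trim32, which encodes a ubiquitin ligase on chromosome 4 and had 0 counts in line 649 against 12.1 to 61.2 CPM elsewhere. The other lines held 0 to 13 such genes each, the most in line 524. Genes beside both members were chosen after their values were seen. All but Slc25a13 had counts in line 649, some of them below the other lines. Slc25a13, 1458 kb from Asns, was at 0 in line 649 and had 0 to 51.3 CPM in the other lines (median 0). C1galt1, a glycosyltransferase gene 151.6 kb from Asns, had 191 CPM in line 649 and 64.6 to 226 CPM in the other lines. On the other side, Sdhaf3, 632.2 kb away, had 4.43 CPM in line 649 and 5.09 to 11.6 CPM in the other lines. Shfm1, 1097 kb away on that side, had 75.8 CPM in line 649 and 92.2 to 171 CPM in the other lines. Ahnak, 32.95 kb from Asrgl1, had 382 CPM in line 649 and 32.3 to 293 CPM in the other lines. Of the 12 neighbours examined around both members, line 649 was below all other lines for 3 (Sdhaf3, Shfm1 and Pcna-ps2, the last with 15.1 CPM in line 649 and 16.0 to 25.1 CPM in the others).

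Other members were high, middling or low in line 649. Its levels of Glul (201 CPM) and Asnsd1 (20.7 CPM) were the highest of the 12 lines. The other 11 lines had 42.0 to 129 CPM of Glul and 6.69 to 17.5 CPM of Asnsd1. Its Got2, at 210 CPM, was the lowest of the lines, the next being line 504 with 286 CPM. Ass1 in line 649 (231 CPM) was the third highest of the 12, Got1 (165 CPM) ranked 8 from the top and Gls2 (0.95 CPM) ranked 10.

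**Figure D2:**
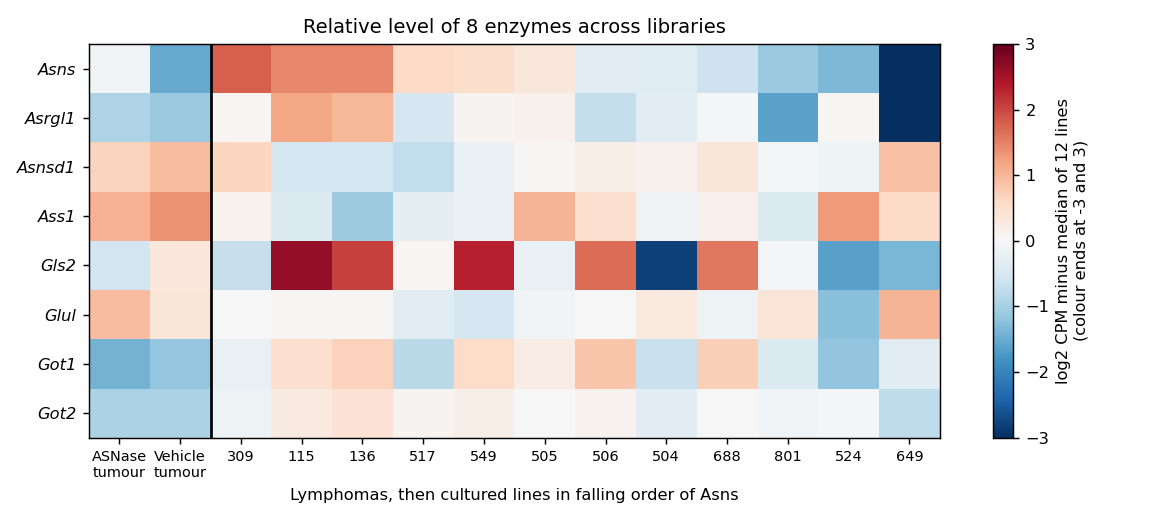
Log2 CPM of 8 members minus the median of the 12 lines (colour; red is higher, blue is lower, ends at -3 and 3), with the ASNase and vehicle lymphomas at the left and the lines in falling order of Asns. Asns and Asrgl1 leave the colour range in line 649, the SD of Gls2 over the lines is 1.75, and Got2 varies least, with an SD of 0.31.

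Gls2 divided the lines into 2 sets. Lines 115, 549, 136, 506 and 688 had 7.82 to 16.3 CPM and the other 7 lines had 0.311 to 2.69 CPM, with counts from 9 to 498. Those 5 lines also had the highest Got1, at 292 to 366 CPM, against 89.3 to 238 CPM in the other 7. For Got2 the sets overlapped, with 358 to 482 CPM in the 5 lines and 210 to 378 CPM in the 7. Because of this separation no Pearson's r over all lines is given for Gls2 with another member. Its rank coefficient over 12 lines was rho = 0.88 with Got2 (permutation adjusted p = 0.00784) and rho = 0.71 with Got1 (permutation adjusted p = 0.122). Within the 7 lower lines the relation was not established, with Got1 (r = 0.37, exact permutation p = 0.406; rho = 0.18, exact p = 0.713) or with Got2 (r = 0.51, exact p = 0.251; rho = 0.64, exact p = 0.139), and the upper set was too small for a coefficient. Gls2 shares 97 exon bases with Spryd4 on the opposite strand, which averaged 26.3 ± 6.57 CPM in the lines (SD, n = 12). How strand was counted is not given in the sources used here, so part of the Gls2 counts could belong to Spryd4 and its level is uncertain.

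Got1 ran from 89.3 CPM in line 524 through a median of 207 CPM to 366 CPM in line 506, with an average of 224 ± 97.4 CPM (SD, n = 12). The line that was grafted into mice was therefore the one with the most Got1. Got2 had the narrowest range, from 210 CPM in line 649 through 359 CPM to 482 CPM in line 136, averaging 359 ± 69.4 CPM. The pseudogene Got2-ps1 shares 12.2% of the 75-base stretches of Got2 and averaged 16.5 ± 3.25 CPM, so a small part of either value may belong to the other.

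Ass1 was lowest in line 136 at 74.0 CPM, had a median of 155 CPM and was highest in line 524 at 374 CPM, with line 505 next at 313 CPM. Line 524, which was highest for Ass1, was thus lowest for Got1 and for Glul and lowest but for line 649 for Asns. A processed pseudogene, Gm5424, shares 32.6% of the 75-base stretches of Ass1 and averaged 12.7 ± 5.85 CPM. Glul ran from 42.0 CPM in line 524 through 99.5 CPM to 201 CPM in line 649. Asnsd1 stayed between 6.69 CPM in line 517 and 20.7 CPM in line 649, with a median of 11.3 CPM. Of its exon bases 1994 are shared with Gm28551 on the same strand, an entry with at most 1 count in a library, and reads from that stretch may have been left uncounted.

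The 8 members form 28 pairs, and 6 of them passed a permutation test of Pearson's r of log2 CPM over 12 lines (two-sided, Benjamini-Hochberg over the 28 pairs). These 6 also had r of at least 0.7 in size, as did 4.63% of all pairs of genes with at least 5 mean CPM. Without line 649 the test passed 2 pairs, Gls2 with Got1 (adjusted p = 0.0274) and Gls2 with Got2 (adjusted p = 0.0193). The same 2 had r of at least 0.7 in size, against 5.85% of all pairs. By Spearman's rho 1 pair passed, Gls2 with Got2. Without the 2 lines farthest from the median of the first gene of a pair, 0 pairs passed the permutation test of r, and 6 had an unadjusted p under 0.05.

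Asns and Asrgl1 had the highest Pearson's r over 12 lines, at 0.97 (permutation adjusted p = 0.0154) and rho = 0.68 (adjusted p = 0.129) over 12 lines. It rested on line 649, without which r was 0.66 (permutation adjusted p = 0.238). Without the 2 farthest lines r was 0.73 (permutation adjusted p = 0.111). Line 309 shows the looser link among the others, since it had the most Asns but only 73.2 CPM of Asrgl1, and line 524 had the least Asns of those lines but 71.4 CPM of Asrgl1. Got2 followed both genes over 12 lines, with r = 0.82 for Asns (permutation adjusted p = 0.0291) and r = 0.84 for Asrgl1 (permutation adjusted p = 0.0154). The rho values were 0.57 and 0.63 (permutation adjusted p = 0.219 and 0.184). Without line 649 these r values were 0.46 and 0.58, with permutation adjusted p of 0.439 and 0.288, and without the 2 farthest lines 0.74 and 0.62, with permutation adjusted p of 0.111 and 0.227. Asnsd1 ran against Got2, with r = -0.77 (permutation adjusted p = 0.0154) and rho = -0.71 (permutation adjusted p = 0.122). That r was -0.63 without line 649 (permutation adjusted p = 0.252) and -0.72 without the 2 farthest lines (permutation adjusted p = 0.111). For the aminotransferases themselves, Got1 and Got2, the relation did not pass, with r = 0.49 (permutation adjusted p = 0.261) and rho = 0.56 (permutation adjusted p = 0.219). That r was 0.60 without line 649 (permutation adjusted p = 0.27) and 0.57 without the 2 farthest lines (permutation adjusted p = 0.236).

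**Figure D3:**
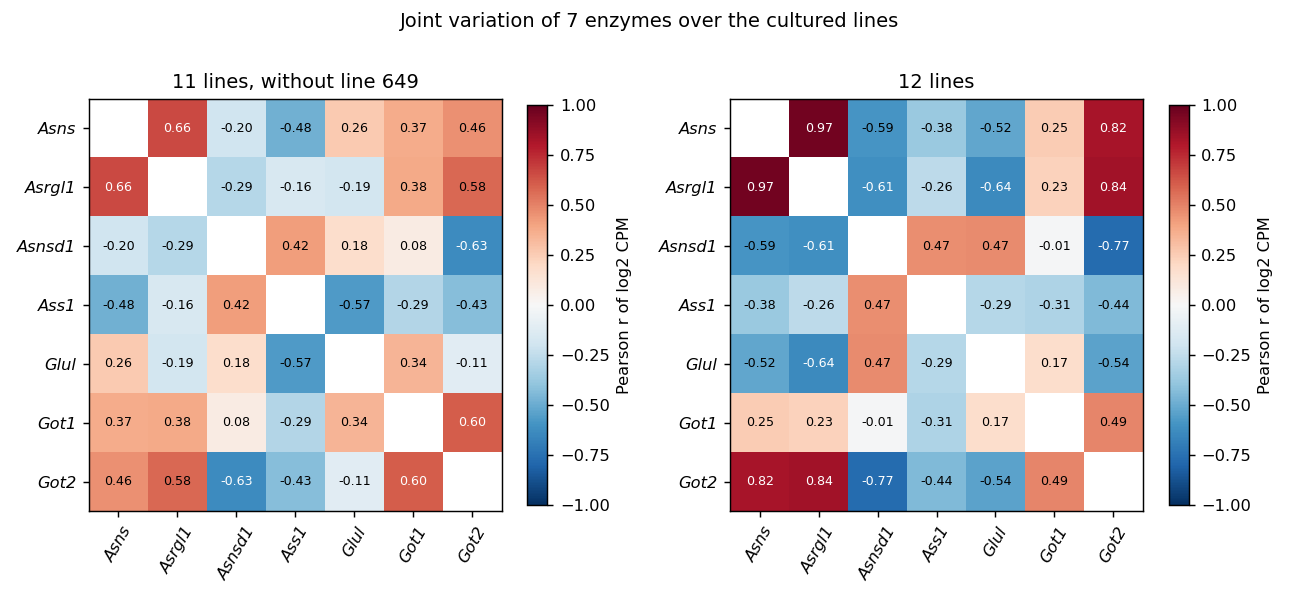
Pearson's r of log2 CPM for each pair of 7 members over the lines, at the left without line 649 and at the right over all 12 lines; Gls2 is left out because it divides the lines into 2 sets. The values for Asns with Asrgl1 (0.66 and 0.97) and for Asns with Got2 (0.46 and 0.82) are larger with line 649.

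**Figure D4:**
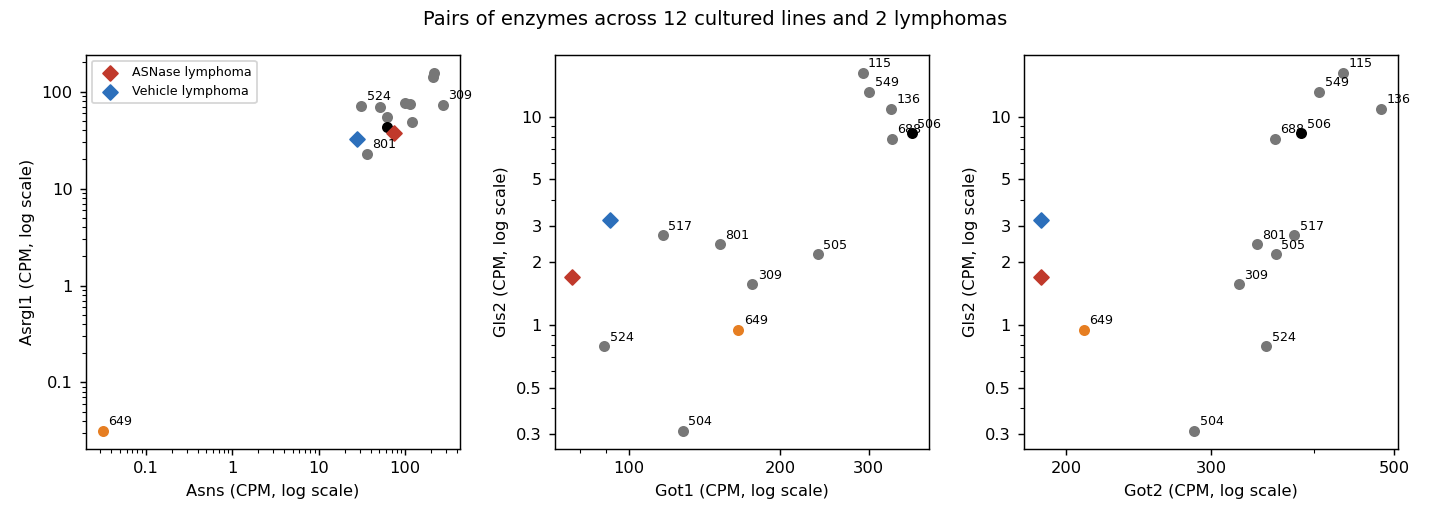
Levels in CPM on log axes of Asrgl1 against Asns, Gls2 against Got1 and Gls2 against Got2, with 1 point per line (orange is line 649, black is line 506) and diamonds for the lymphomas. Line 649 stands alone at 0.0317 CPM of both Asns and Asrgl1, and the 5 lines with at least 7.82 CPM of Gls2 are also those with the most Got1.

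Among the 9764 other genes with at least 5 mean CPM in the lines, the genes whose levels followed Asns most closely across 12 lines were Asrgl1 (r = 0.97), Tars, a threonyl-tRNA synthetase (0.94), Trim32 (0.93), Pomp, a proteasome assembly factor (0.89), and Map4k3, a kinase (0.89). All 5 places changed without line 649, when Gm10313, Ndufa5, Guk1, Ndufa9 and Tnpo3 led with r of 0.94 to 0.92. Among 21 genes of the amino acid response with at least 5 mean CPM, 0 reached 0.7 in size with Asns over 12 lines and 3 did over the 11 lines without line 649. These were Shmt2 (r = 0.84), Eif4ebp1 (0.83) and Mthfd2 (0.82), which encode mitochondrial enzymes of one-carbon metabolism and an inhibitor of translation initiation. Their values over 12 lines were 0.60, 0.57 and 0.61. Of all 9764 genes, 2.4% reached 0.7 in size with Asns over 12 lines and 4.22% over 11. The median r of the 21 genes was 0.47 over 12 lines and 0.49 over 11, against 0.02 and 0.04 for all genes with at least 5 mean CPM. These coefficients are descriptions over the same lines and libraries.

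Asrgl1 was followed by Asns, Trim32 (r = 0.95) and Map4k3 (0.91). Asns, Asrgl1 and Trim32 are the genes silent or nearly so in line 649 alone. Without that line all of these places changed, and other genes led with r of 0.90 to 0.89. Ass1 was followed by its pseudogene Gm5424 (0.99), Dip2b (0.92) and Ints4 (0.89), and Got2 by its pseudogene Got2-ps1 (0.98), Nsfl1c (0.93) and Sod2, the mitochondrial superoxide dismutase (0.92). The r values of both pseudogenes could rest in part on reads from the stretches they share with the members, which was not tested. For Got1 the nearest genes were Pum3 (0.96), Wdr74 (0.95) and Rmdn3 (0.93), and for Gls2 they were Xpot, which exports tRNA from the nucleus (0.98), C1qbp (0.95) and Mrpl49 (0.95). Those r values for Gls2 were taken over both of its sets of lines together. Xpot had 413 to 522 CPM in the 5 lines with more Gls2 and 265 to 352 CPM in the other 7. Over 12 lines, 13.8% and 11.1% of the 9764 genes reached 0.7 in size with Gls2 and Got1. The shares were 2.22% to 5.43% for the other 6 members, Got2 having 5.43%. Without line 649 they were 18.9% for Gls2, 14.7% for Got2, 13.6% for Got1 and 3.41% to 4.77% for the rest. Glul was nearest to Gtf3c3 (0.92), Snrnp35 (0.88) and Mesdc1 (0.88), and Asnsd1 to Zdhhc7 (0.93), Arid5a (0.91) and Ankle2 (0.90).

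In the lymphomas, both aminotransferases stood low and Ass1 stood high against the lines, but only Got2 passed the test. Of 8 members tested, 0 were called higher and 1 lower at an adjusted p under 0.05 by edgeR's quasi-likelihood test, whose spread comes from the lines alone. Over 17450 genes 24.5% were called, 13.4% higher and 11.1% lower. At an unadjusted p under 0.05 there were 1 higher (Ass1) and 2 lower members (Got1 and Got2), and DESeq2 called 0 higher and those 2 lower. Over all genes DESeq2 called 4375, against 4270 by edgeR. No share of all genes is given at an unadjusted p, so counts at that threshold have no background here. The median log2 fold change of the 8 members was -0.98, against -0.01 for all genes tested. Scaling by total counts would move that median of all genes to 0.22.

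Got2 had 186 CPM in the ASNase lymphoma and 186 CPM in the vehicle lymphoma, against 210 to 482 CPM (median 359) in the lines. Both lymphomas lay below every line. That made Got2 the only member with both lymphomas outside the range of the lines, as were 31.5% of genes tested. Its log2 fold change was -0.95 (SE 0.24, edgeR adjusted p = 0.0115). With only the ASNase lymphoma the adjusted p was 0.0778, and with only the vehicle lymphoma it was 0.0824, at nearly the same fold change (-0.95 in each).

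Got1 had 76.8 CPM in the ASNase lymphoma and 91.7 CPM in the vehicle lymphoma, against 89.3 to 366 CPM in the lines. The ASNase lymphoma was below all 12 lines, and the vehicle lymphoma was above line 524 alone. Its log2 fold change of -1.42 (SE 0.53) did not pass in edgeR (adjusted p = 0.0673) and passed in DESeq2 (adjusted p = 0.0215). Ass1 had 317 CPM in the ASNase lymphoma and 395 CPM in the vehicle lymphoma, against 74.0 to 374 CPM in the lines, so that 11 and 12 of the 12 lines lay below them. Its log2 fold change of 0.96 (SE 0.44) did not pass (edgeR adjusted p = 0.128).

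Asnsd1 and Glul had higher values in the lymphomas than in most lines, without passing. Asnsd1 had 18.1 CPM in the ASNase lymphoma and 21.7 CPM in the vehicle lymphoma, above 11 and 12 of the 12 lines (log2 fold change 0.73, SE 0.35, edgeR adjusted p = 0.144). Glul had 190 CPM in the ASNase lymphoma and 128 CPM in the vehicle lymphoma, above 11 and 10 lines (log2 fold change 0.61, SE 0.36, edgeR adjusted p = 0.248). Asns, Asrgl1 and Gls2 had log2 fold changes of -1.24, -1.01 and -1.27, with SEs of 1.39, 1.23 and 1.29 and edgeR adjusted p of 0.567, 0.604 and 0.523. The spread behind these SEs includes line 649, with 1 count each of Asns and Asrgl1. Without that line the log2 fold changes were -1.36, -1.13 and -1.37, and again none passed. Asns had 74.1 CPM in the ASNase lymphoma and 27.7 CPM in the vehicle lymphoma, the second below every line but 649. Its log2 fold change was -0.52 with the ASNase lymphoma alone and -1.95 with the vehicle lymphoma alone. Host tissue markers were present in the lymphomas at the levels given above, and their part in any of these values was not tested.

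Line 506 is the nearest reference for the lymphomas it formed. With 1 library on each side there is no test, and a member was counted when its CPM differed at least 2-fold with 5 CPM or more in either library. In the ASNase lymphoma against line 506, 3 members were past this size, all lower, and 0 higher, where 12% of genes were lower and 16.5% higher. In the vehicle lymphoma against line 506, 4 members were past it, all lower, and 0 higher, where 12.2% of genes were lower and 17.6% higher. Both comparisons share the library of line 506.

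Got1 had the lowest ratios among the abundant members, with 76.8 CPM in the ASNase lymphoma, 91.7 CPM in the vehicle lymphoma and 366 CPM in line 506. The ratios to line 506 were 0.210 (95% counting interval 0.201 to 0.220) for the ASNase lymphoma and 0.251 (0.241 to 0.262) for the vehicle lymphoma. Got2 was at 0.483 of line 506 in each lymphoma, with 385 CPM in the line. Gls2 had 1.70 CPM in the ASNase lymphoma, 3.19 CPM in the vehicle lymphoma and 8.31 CPM in line 506, with ratios of 0.205 (0.148 to 0.278) and 0.383 (0.301 to 0.486). Asns passed the size limit only in the vehicle lymphoma, at 0.441 of line 506 (0.406 to 0.478). In the ASNase lymphoma Asns was 1.18 times line 506 (1.11 to 1.26), where line 506 had 62.7 CPM. Ass1 was 1.47 times line 506 in the ASNase lymphoma and 1.84 times in the vehicle lymphoma, Glul 1.93 and 1.30 times, Asnsd1 1.41 and 1.69 times, and Asrgl1 0.867 and 0.754 times, all inside the size limit.

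Between the lymphomas, Asns was the member that stood apart. It had 74.1 CPM in the ASNase lymphoma and 27.7 CPM in the vehicle lymphoma, a ratio of 2.68 (95% counting interval 2.47 to 2.90). Of 7 members with at least 5 CPM in either lymphoma, 1 was at least 2-fold higher and 0 were lower, where 2.7% of 10561 genes were higher and 1.99% lower. The ASNase lymphoma lay within the range of the lines, above 6 of the 12, so the contrast includes a low value in the vehicle lymphoma. Glul was next with 190 CPM in the ASNase lymphoma and 128 CPM in the vehicle lymphoma (ratio 1.49, 1.43 to 1.55). Asrgl1 had 37.0 CPM in the ASNase lymphoma and 32.2 CPM in the vehicle lymphoma (1.15, 1.06 to 1.25), and so did not share the difference in Asns. Got2 had a ratio of 1.00 (0.964 to 1.04).

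Got1 (0.837, 0.792 to 0.885), Asnsd1 (0.831, 0.741 to 0.932) and Ass1 (0.801, 0.780 to 0.823) had lower values in the ASNase lymphoma by less than the size limit. Gls2 was under 5 CPM in both lymphomas, with a ratio of 0.534 (0.374 to 0.757). The median gene had a log2 ratio of -0.05. Summed fibroblast markers were 2436 CPM in the ASNase lymphoma and 1003 CPM in the vehicle lymphoma, summed macrophage markers were 763 and 364 CPM, and their part in the ratios of Asns and Glul was not tested. Treatment cannot be told apart from differences between the 2 hosts.

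**Figure D5:**
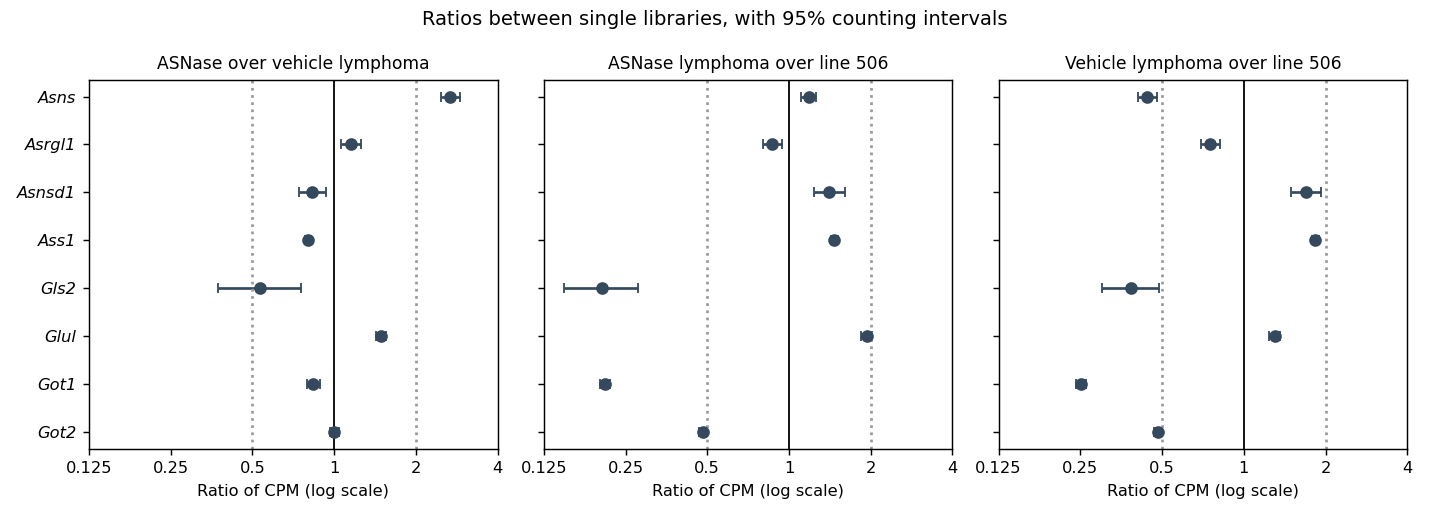
Ratio of CPM (log axis) of 8 members in the ASNase over the vehicle lymphoma, the ASNase lymphoma over line 506 and the vehicle lymphoma over line 506; bars are 95% counting intervals of single libraries and dotted lines mark 2-fold. Asns is at 2.68, 1.18 and 0.441, and Got1 is at 0.837, 0.210 and 0.251.

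The related lists were chosen with the members. As background to every list below, edgeR called 13.4% of all genes tested higher and 11.1% lower in the lymphomas. These shares apply to adjusted edgeR calls alone. No such share is given for counts at an unadjusted p or, by direction, for DESeq2, so those counts have no background here. Between the lymphomas, 2.7% of 10561 genes were at least 2-fold higher with ASNase and 1.99% lower. Of 30 other enzymes of these amino acids that were tested, 0 were called higher and 6 lower in the lymphomas by edgeR, with a median log2 fold change of -0.49. At an unadjusted p under 0.05 these counts were 1 and 13, and DESeq2 called 0 and 9. The strongest was Gmps, which uses glutamine to make guanine nucleotides, with 91.9 CPM in the ASNase lymphoma, 75.1 CPM in the vehicle lymphoma and 277 ± 65.2 CPM in the lines (SD, n = 12; log2 fold change -1.74, SE 0.29, adjusted p = 0.00112). Ppat, the first enzyme of purine synthesis, had 94.1, 89.5 and 210 ± 39.8 CPM in the same order (log2 fold change -1.19, adjusted p = 0.00237). The call of Ccbl2 was lost with either lymphoma alone (edgeR adjusted p = 0.134 with the ASNase lymphoma and 0.113 with the vehicle lymphoma). Of the 6 calls 2 remained with each lymphoma alone, those of Gmps and Ppat. Between the lymphomas 0 of 28 such enzymes differed by 2-fold.

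Of 16 carriers 4 were called higher and 3 lower by edgeR, of which 2 passed with the ASNase lymphoma alone and 4 with the vehicle lymphoma alone. Slc38a9, a lysosomal amino acid sensor, had 69.0 CPM in the ASNase lymphoma, 51.1 CPM in the vehicle lymphoma and 13.9 ± 3.99 CPM in the lines (log2 fold change 2.09, edgeR adjusted p = 0.000168). Slc1a5, the main glutamine importer of many tumour cells, had 670, 852 and 409 ± 66.8 CPM (log2 fold change 0.89, adjusted p = 0.00302, but 0.0679 with the ASNase lymphoma alone). Slc7a8 and Slc7a11 were nearly absent from the lines, at most 0.234 and 0.0334 CPM. They had 13.2 and 0.367 CPM in the ASNase lymphoma and 9.73 and 0.354 CPM in the vehicle lymphoma. Both entered the test only through the lymphomas, and the lines gave them almost no spread, so their calls add nothing to these levels. Slc25a18, a mitochondrial glutamate carrier, was the one carrier past the size limit between the lymphomas, with 8.22 CPM in the ASNase lymphoma and 1.74 CPM in the vehicle lymphoma (4.73-fold, 3.51 to 6.47). It had 0.323 to 5.50 CPM in the lines.

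Of 5 partners of the aminotransferases in the malate-aspartate shuttle, 1 was called lower and 0 higher (0 higher also at an unadjusted p under 0.05 and by DESeq2). This was Mdh2, the mitochondrial malate dehydrogenase, with 236 CPM in the ASNase lymphoma, 277 CPM in the vehicle lymphoma and 479 ± 58.7 CPM in the lines (log2 fold change -0.91, SE 0.15, edgeR adjusted p = 0.0012). Mdh2 thus passed the test in the same direction as Got2. Slc25a13, 1 of the 2 mitochondrial aspartate-glutamate carriers and a gene on the chromosome of Asns, was at 3 counts or fewer in 8 of 12 lines, line 649 among them. It had 51.3 CPM in line 504, 41.0 CPM in line 309, 16.7 CPM in line 524 and 4.93 CPM in line 517, and was named after its values were seen. The other carrier, Slc25a12, had 25.6 to 55.1 CPM in all lines.

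Among 10 tRNA-charging genes for these amino acids 1 was called higher (Ears2) and 3 lower (Dars, Eprs and Nars) by edgeR. With the ASNase lymphoma alone 0 of these 4 passed, and with the vehicle lymphoma alone 1 did (Dars). In this list 0 genes differed by 2-fold between the lymphomas. Of 33 genes of the amino acid response, 5 were called higher and 6 lower against the lines by edgeR, where 13.4% and 11.1% of all genes were. Their median log2 fold change was -0.42, against -0.01 for all genes tested. At an unadjusted p under 0.05 the counts were 5 and 9, and DESeq2 called 3 and 8, for which those shares are no background. Of these 11 calls 3 passed with the ASNase lymphoma alone and 3 with the vehicle lymphoma alone, and 2 of them (Vldlr and Gdf15) were shared. Mthfd2 was lower, with 57.1 CPM in the ASNase lymphoma, 65.0 CPM in the vehicle lymphoma and 186 ± 60.4 CPM in the lines (log2 fold change -1.61, edgeR adjusted p = 0.00438, but 0.0521 with the vehicle lymphoma alone). Of the 5 called higher, Vldlr, Gdf15, Slc7a11 and Nupr1 had 2.25 CPM or less in each lymphoma. Vldlr, Gdf15 and Slc7a11 had at most 0.0653 CPM in any line and entered the test only through the lymphomas. With almost no spread in the lines, their calls add nothing to these levels. Between the lymphomas 0 of 23 genes of this list, without Asns, differed by 2-fold. Atf4 itself had 232 CPM in the ASNase lymphoma and 237 CPM in the vehicle lymphoma.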

How the data were processed

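The deposited table holds whole-number counts per gene that the authors made, not normalized. The submitters' processing notes name STAR 2.4.0, featureCounts of Subread 1.5.0-p3 and mm10 (GRCm38). How strand and reads with several matches were handled is not given here in the sources used. All 14 columns matched a sample by title, and 100 spike-in and phage entries were left out.

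Members and lists were chosen with earlier results of these data known. Counts were analysed with edgeR 4.0.16 (filterByExpr, TMM, glmQLFit, glmQLFTest) in R 4.3.3, on 3 groups with 11 residual degrees of freedom, all from the lines. P-values were adjusted by the Benjamini-Hochberg method over 17450 genes and called under 0.05. A prior count of 2 was added before taking log2 CPM. Single libraries were compared by size (at least 2-fold, 5 CPM or more in either) with exact 95% binomial intervals. Pairs of members had permutation tests of 100000 resamples. Named genes were the members, up to 4 called genes per list by smallest p, up to 4 per list past the size limit between the lymphomas, the 3 nearest genes of each member (5 for Asns), and amino acid response genes with r of at least 0.7 in size with Asns. Others (C1galt1, Sdhaf3, Shfm1, Pcna-ps2, Ahnak, Slc25a13, Slc25a12, Atf4, Nupr1, and Shmt2 and Eif4ebp1 from the lines without 649) were named after their values were seen. A gene under this rule is not reported here. Alternatives were DESeq2 1.42.0, its size factors, total-count scaling, no filter, other CPM floors and prior counts, and fits without each lymphoma, line 506 or line 649. The fits were tested on simulated data. Coordinates are those of the deposited table, gene types and shared stretches come from GENCODE, and promoters come from RefSeq.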

Additional observations from a re-analysis of the deposited data

How the results depend on the processing

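Against 4270 genes called between lymphomas and lines, 1816 were called with the vehicle lymphoma alone and 2012 with the ASNase lymphoma alone. The member call, 1 in the main analysis, became 2 with DESeq2 (Got1 was added, log2 fold change -1.36) and 0 with either lymphoma alone, where the fold change of Got2 was -0.95. In the other 5 settings 1 member was called. Between the lymphomas 495 genes differed by 2-fold at a floor of 5 CPM, 1133 at a floor of 1 CPM and 192 at a floor of 20 CPM. Of the 28 member pairs 6 were called, 1 by Spearman's rho, 2 without line 649 and 0 without the 2 farthest lines. The cause was not tested. The count of members with an SD of at least 1 was 3 in the main analysis and 2 without line 649. It was 3 with another prior count, with total-count scaling and without any other single line. No member's fold change against the lines turned its sign. No paired analysis was possible because each lymphoma had 1 library and the line numbers name lines, not pairs. The correlations without line 649 of nearest genes and amino acid response genes, and the calls per list with each lymphoma alone, were chosen after seeing the data. Depth limits Aspg, with 2 counts in all, and Gls2, whose lowest line had 9.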
